A study of Mus musculus with 4 samples.

Results

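The 10 genes described here encode checkpoint and costimulatory molecules of lymphocytes and of the cells that present antigen to them. They were listed by name, not by any value in these libraries, and are 10 of the 31053 genes in the count matrices. They comprise 4 inhibitory receptors (Pdcd1, Ctla4, Havcr2 and Lag3), 4 costimulatory receptors (Icos, Tnfrsf9, Tnfrsf4 and Tnfrsf18) and the ligand genes Cd274 and Pdcd1lg2. Each was followed through marker-defined lymphocyte subsets and ligand-bearing cells of mouse back skin by single-cell RNA sequencing of transcript ends. All mice were on the BALB/c background, and 4 groups with 1 library each were profiled. A Cd226-/- DMBA/TPA library and a WT DMBA/TPA library came from skin that received 25 µg of the carcinogen DMBA and then 5 µg of the phorbol ester TPA once a week, 3 times. Their cells, taken 3 weeks after treatment from 3 pooled mice, were sorted into CD45+ (blood-derived) and CD45- fractions that were recombined in equal parts. A naive CD45+ library and a naive CD45- library came from untreated skin, and each combines cells of Cd226-/- and WT mice, so neither separates the genotypes. The labels give neither the sex nor the age of the mice. With 1 library per group no difference below has a replicate check, no test was made, and every interval covers counting error only.

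CD226 is an activating receptor of T and NK cells that binds CD155 and CD112, the same ligands that the inhibitory receptor TIGIT binds. The 10 molecules set how strongly such cells respond once their antigen receptor is engaged. Inhibitory receptors and several costimulatory receptors are induced by activation, so their transcripts mark recently or repeatedly stimulated cells as well as regulatory T cells. PD-L1 and PD-L2, the products of Cd274 and Pdcd1lg2, are the ligands of PD-1 and are known to be induced in myeloid and stromal cells by interferons and other inflammatory signals.

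Several of the genes are neighbours. In the GRCm38 annotation (GENCODE vM21), Ctla4 (chr1:60887000-60915832) and Icos (chr1:60977927-61000320) lie on the plus strand with 62.1 kb between them, and Cd28 lies 114 kb before Ctla4. Tnfrsf4 (chr4:156013843-156016612) and Tnfrsf18 (chr4:156026164-156028895) are 9.55 kb apart on the plus strand of the chromosome that also holds Tnfrsf9 (chr4:150914562-150946102). Cd274 (chr19:29367455-29388095) and Pdcd1lg2 (chr19:29410919-29471161) follow each other on the plus strand with 22.8 kb between them. Havcr2 (chr11:46454935-46481255) is on the plus strand, and Pdcd1 (chr1:94038305-94052553) and Lag3 (chr6:124904361-124911705) are on the minus strand. RefSeq promoter sequence of build GRCm38.p6 was at hand for 8 of the 10 genes. The 250 bases before the start follow for 4 of them: Havcr2 and Tnfrsf9 (second of its 2 listed starts), whose levels differed most between treated and naive lymphocytes among the receptors; Tnfrsf18, the receptor that differed least; and Cd274, the ligand gene found in most cell classes. All are plus-strand sequence, 5′ to 3′, at chr11:46454681-46454930, chr4:150927749-150927998, chr4:156026072-156026321 and chr19:29367188-29367437 in the order given. The starts are those of RefSeq and can differ from the annotated gene starts above. The Tnfrsf9 window lies wholly, and the Tnfrsf18 window partly, inside the annotated span of its gene. Capitals mark matches to TGANTCA (AP-1), TTCNNNGAA (the GAS element bound by STAT factors) or TGTGGT (the RUNX core), searched on both strands.
Havcr2: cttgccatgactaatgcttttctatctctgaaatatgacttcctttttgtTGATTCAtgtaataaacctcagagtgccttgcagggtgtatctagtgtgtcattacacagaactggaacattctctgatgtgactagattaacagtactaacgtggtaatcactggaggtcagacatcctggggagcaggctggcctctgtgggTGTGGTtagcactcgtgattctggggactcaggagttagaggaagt
Tnfrsf9: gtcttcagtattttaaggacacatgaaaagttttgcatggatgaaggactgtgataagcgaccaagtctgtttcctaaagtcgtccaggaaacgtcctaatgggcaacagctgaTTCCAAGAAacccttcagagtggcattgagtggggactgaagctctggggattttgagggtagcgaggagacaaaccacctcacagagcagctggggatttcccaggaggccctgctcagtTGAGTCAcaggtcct
Tnfrsf18: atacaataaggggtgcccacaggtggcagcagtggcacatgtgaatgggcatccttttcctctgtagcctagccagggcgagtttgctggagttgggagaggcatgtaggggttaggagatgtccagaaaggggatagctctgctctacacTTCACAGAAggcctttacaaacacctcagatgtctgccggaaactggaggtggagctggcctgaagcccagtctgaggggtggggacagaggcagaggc
Cd274: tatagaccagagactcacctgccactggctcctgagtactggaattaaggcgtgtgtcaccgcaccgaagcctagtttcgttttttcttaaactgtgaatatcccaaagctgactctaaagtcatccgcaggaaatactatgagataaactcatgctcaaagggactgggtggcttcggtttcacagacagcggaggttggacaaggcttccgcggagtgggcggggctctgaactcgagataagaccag
The AP-1 letters began 200 bases before the start of Havcr2 and 15 bases before that of Tnfrsf9, and the letters occur in 6.75% of the 32851 promoter windows of this length. The GAS letters began 136 bases before the Tnfrsf9 start and 99 bases before the Tnfrsf18 start (7.02% of windows). The RUNX letters began 46 bases before the Havcr2 start (4614 of the 32851 windows). The Cd274 window held no match to any of the 3, and no matches overlapped. The windows not printed, those of the first Tnfrsf9 start and of Pdcd1, Ctla4, Tnfrsf4 and Pdcd1lg2, held no match either. These are matches of letters and nothing was measured at them.

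The filters left 6521 Cd226-/- cells, 7022 WT cells, 3494 cells from naive CD45+ skin and 10597 from naive CD45- skin, with median depths from 6552 to 9073 UMIs (unique molecules counted). Pairs of libraries shared 6 to 19 cell barcodes. Clusters were named from marker lists that hold none of the 10 genes, and the suffix "-like" marks such a name. Lymphocyte-like cells numbered 593 in the Cd226-/- library, 393 in the WT library and 262 in the naive CD45+ library, at median depths of 3413, 3432 and 5755.5 UMIs in that order, and 4 in the naive CD45- library, which was left out of lymphocyte comparisons. All 13 lymphocyte markers were detected in each of these 3 libraries, and summed to 10356, 9572 and 11382 CPM in the same order (CPM is the UMIs of a gene per 1000000 UMIs, after summing over the cells of a class). Of the cells, 1 cluster held 350 of 593, 183 of 393 and 176 of 262. Icos was among the leading genes of that cluster, whose cells were grouped on expression that includes the 10 genes. Transcripts of other cells were also present: the 7 fibroblast markers summed to 724, 1665 and 46.5 CPM in lymphocyte-like cells of the Cd226-/-, WT and naive CD45+ libraries, and the 7 neutrophil markers to 557, 219 and 120. Their part in the results below was not tested. Cd226 itself had 17.6 CPM in lymphocyte-like cells of the Cd226-/- library, against 46.3 in the WT library. The part of the gene that was deleted is not given in the labels, so these counts of transcript ends do not check the genotype.

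Among the inhibitory receptors, all 4 were higher in lymphocyte-like cells of both treated libraries than of naive skin. Havcr2, which encodes TIM-3, a receptor of chronically stimulated T cells and of myeloid cells, had 118 CPM in Cd226-/- lymphocytes and 105 in WT lymphocytes, against 6.12 in naive lymphocytes. The naive level rested on 10 UMIs, so the intervals were wide, and the folds were 19.3 (95% interval 10.3 to 40.7) for Cd226-/- over naive and 17.1 (9.10 to 36.3) for WT over naive. Ctla4, whose product competes with CD28 for CD80 and CD86, had 293 CPM in Cd226-/- lymphocytes and 253 in WT lymphocytes, against 53.8 in naive lymphocytes. The folds over naive were 5.44 (4.36 to 6.88) for Cd226-/- and 4.71 (3.74 to 5.99) for WT. Both treated libraries were thus far from the naive one in these cells and close to each other. Lymphocyte-like cells held 59.4% of all Ctla4 UMIs of the Cd226-/- library and 56.3% of those of the WT library, against 30.9% in naive CD45+ skin. The naive level thus leaves out most naive Ctla4 UMIs. Of these, 32.6% lay in an unnamed cluster with lymphocyte and monocyte markers and 30.5% in an unnamed cluster of cycling cells. Pdcd1, which encodes PD-1, had 212 CPM in Cd226-/- lymphocytes and 226 in WT lymphocytes, against 78.3 in naive lymphocytes, which is 2.71-fold (2.22 to 3.31) and 2.89-fold (2.36 to 3.56). Lag3, a receptor for MHC class II and fibrinogen-like protein, was scarce, at 13.7 CPM in Cd226-/- lymphocytes and 15.6 in WT lymphocytes, against 4.89 in naive lymphocytes. Its 32, 27 and 8 UMIs left the folds over naive, 2.81 (1.27 to 7.05) and 3.19 (1.41 to 8.13), poorly determined.

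Of the costimulatory receptors, Tnfrsf9 differed most. It encodes 4-1BB, which is displayed by T cells after activation, and had 578 CPM in Cd226-/- lymphocytes and 398 in WT lymphocytes, against 71.6 in naive lymphocytes. That is 8.08-fold (6.69 to 9.85) for Cd226-/- over naive and 5.56-fold (4.57 to 6.83) for WT over naive, with Cd226-/- the highest of the 3 libraries. Icos, the inducible relative of CD28 that binds ICOS ligand, had 901 CPM in Cd226-/- lymphocytes and 848 in WT lymphocytes, against 308 in naive lymphocytes, or 2.93-fold (2.66 to 3.23) and 2.76-fold (2.49 to 3.06). Tnfrsf4, which encodes OX40, had 122 CPM in Cd226-/- lymphocytes and 92.6 in WT lymphocytes, against 59.3 in naive lymphocytes, or 2.06-fold (1.63 to 2.62) and 1.56-fold (1.21 to 2.03). Tnfrsf18, which encodes GITR, a receptor that resting regulatory T cells already carry, had 215 CPM in Cd226-/- lymphocytes and 207 in WT lymphocytes, against 148 in naive lymphocytes. Its folds of 1.46 (1.25 to 1.70) and 1.40 (1.19 to 1.65) stayed under the 1.5-fold used here to call a difference.

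The ligand genes were also detected in lymphocytes. Cd274 had 69.1 CPM in Cd226-/- lymphocytes and 49.2 in WT lymphocytes, against 36.7 in naive lymphocytes, which is 1.88-fold (1.39 to 2.58) for Cd226-/- over naive and 1.34-fold (0.952 to 1.90) for WT over naive. Pdcd1lg2 had 34.3 CPM in Cd226-/- lymphocytes and 49.2 in WT lymphocytes, against 10.4 in naive lymphocytes, or 3.30-fold (1.94 to 5.95) and 4.73-fold (2.79 to 8.5). In the WT library 26 of its 85 UMIs lay in 1 cell, and with the cell richest in the gene removed from either library the WT fold was 3.76.

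**Figure D1:**
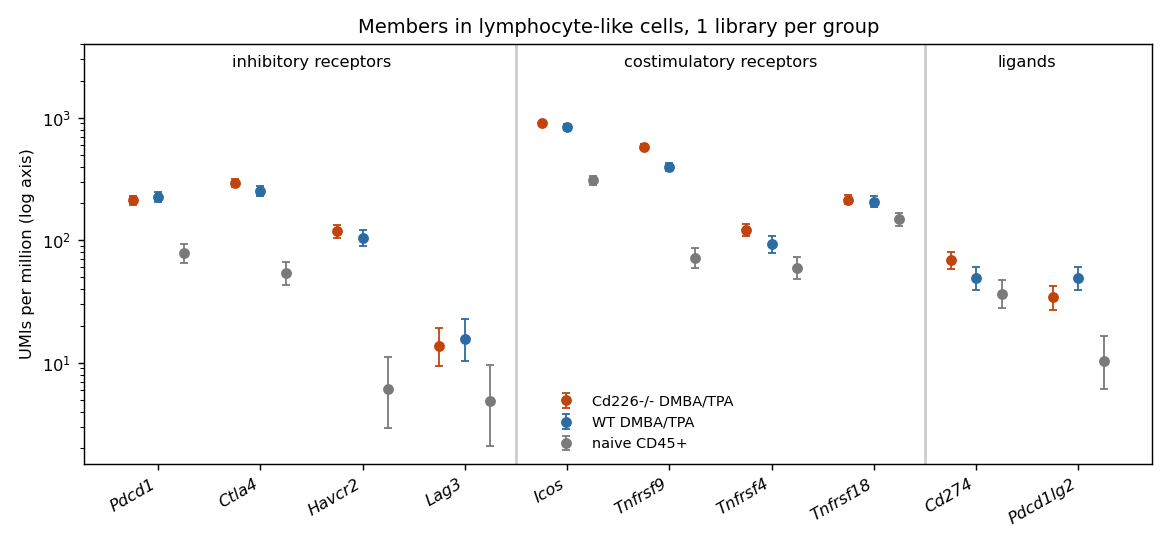
Levels of the 10 genes in lymphocyte-like cells, in CPM on a log axis; points are 1 library each (Cd226-/- DMBA/TPA, WT DMBA/TPA, naive CD45+, left to right) and bars are exact Poisson 95% intervals. The naive point is the lowest for every gene, with Havcr2 at 118, 105 and 6.12 and Tnfrsf9 at 578, 398 and 71.6.

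Counting a gene as different when it was past 1.5-fold with at least 30 UMIs over both libraries, all 10 genes could be counted. In Cd226-/- over naive, 9 of 10 were higher and 0 lower, where 13.8% of 8088 genes were higher and 15% lower. In WT over naive, 8 of 10 were higher and 0 lower, where 12.3% of 7666 genes were higher and 18.3% lower. The median log2 ratio was 1.52 over the 10 genes and -0.06 over all genes counted for Cd226-/- over naive, and 1.60 and -0.11 for WT over naive. The 2 comparisons share the naive library. The size of these folds depended on which cells were called lymphocytes. Over all kept cells with at least 3 CD3 UMIs (Cd3d, Cd3e and Cd3g together) whatever their cluster, Ctla4 was 1.24-fold for Cd226-/- over naive and 1.30-fold for WT over naive, Tnfrsf18 1.01-fold and 1.03-fold, and Tnfrsf4 was lower in treated cells, at 0.926-fold and 0.874-fold. Over the same cells Havcr2 remained past the threshold at 3.79-fold and 3.80-fold, Tnfrsf9 at 4.49-fold and 3.72-fold, Icos at 1.62-fold and 1.65-fold and Pdcd1 at 1.71-fold and 2.17-fold. These cells include some from a cluster of 176 Cd226-/-, 92 WT and 21 naive CD45+ cells that carried lymphocyte and monocyte markers together and was left unnamed. Ctla4, Tnfrsf4 and Icos were among its leading genes. Its median depths were 11938, 10085.5 and 18303 UMIs in that order, above those of lymphocyte-like cells. Whether it holds undetected doublets was not tested. In this cluster Ctla4 had 145 CPM in the Cd226-/- library and 165 in the WT library, against 229 in the naive CD45+ library. The order there was thus the opposite of that in the lymphocyte-like clusters. The naive value came from 93 UMIs in 21 cells, under the 50 cells asked of class comparisons. With that cluster counted in, Havcr2 was 5.34-fold for Cd226-/- over naive and 5.09-fold for WT over naive, Ctla4 2.47-fold in both and Tnfrsf4 1.52-fold and 1.18-fold. With each library clustered on its own, Havcr2 was 8.04-fold and 6.37-fold, Ctla4 2.75-fold and 2.00-fold and Tnfrsf4 1.42-fold and 1.02-fold. With every library given the subset makeup of WT, Ctla4 was 12-fold and 8.61-fold, Lag3 10.1-fold and 8.79-fold and Tnfrsf4 4.19-fold and 2.38-fold. Both treated libraries thus kept the same side of naive for Havcr2 and Ctla4 under each of these choices, and the sizes differed widely.

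**Figure D2:**
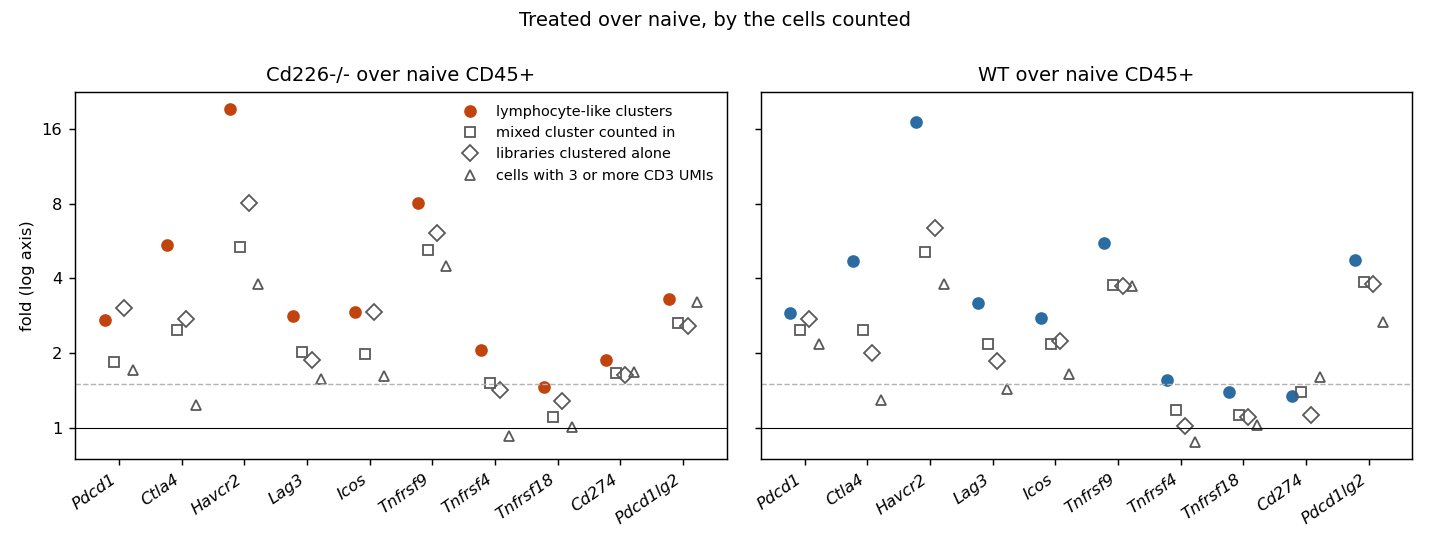
Fold of each gene for Cd226-/- over naive CD45+ (left) and WT over naive CD45+ (right), on a log axis, with the lymphocyte-like clusters (filled) and 3 other choices of cells (open); the solid line is 1-fold and the dashed line 1.5-fold. Havcr2 and Tnfrsf9 stay past 1.5-fold under every choice drawn, whereas Tnfrsf4 is at 0.926 and 0.874 over cells with 3 or more CD3 UMIs.

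More lymphocytes carried the transcripts in treated skin. With every cell thinned to 1000 UMIs (no cell was shallower), Icos was detected in 48.1% of Cd226-/- lymphocytes and 47.6% of WT lymphocytes, against 19.8% of naive lymphocytes; unthinned shares were 72.2%, 73.5% and 44.7% in that order. Tnfrsf9 was detected in 31.5% of Cd226-/- and 27.0% of WT lymphocytes, against 3.05% of naive ones (unthinned 53.3%, 48.1% and 11.8%). Havcr2 was detected in 9.95% of Cd226-/- and 9.41% of WT lymphocytes, against 0.763% of naive ones (unthinned 26.1%, 25.7% and 2.67%). Fibroblast-like cells, which should lack these receptors, give a rough guide to free RNA: thinned alike, Icos was detected in 0.110% of them in the Cd226-/- library and 0.0496% in the WT library, and Tnfrsf9 in 0.0732% and 0.0496%, at median depths of 12670 and 10192 UMIs before thinning. Havcr2 was detected in 0.0366% and 0.0248% of them. In lymphocytes of the treated libraries the shares of the 3 genes were above these. Those lymphocytes were shallower, at median depths of 3413 and 3432 UMIs, so the fibroblast-like shares may understate free RNA in them. Its level in lymphocytes was not measured. In naive CD45+ skin 0 of 151 fibroblast-like cells held any of the 3 after thinning, at a median depth of 15763 UMIs before it, and the exact 95% interval reaches 2.41%, so the 0.763% for Havcr2 in naive lymphocytes is not read as expression. For Tnfrsf18 the unthinned shares (36.3%, 36.6% and 43.1% in Cd226-/-, WT and naive lymphocytes) ran against its levels, and no order is read from them.

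Cells with several receptors at once were also more frequent in treated skin. At least 3 of the 8 receptors were detected in 291 of 593 Cd226-/- lymphocytes (49.1%) and 197 of 393 WT lymphocytes (50.1%), against 28 of 262 naive lymphocytes (10.7%), although the naive cells were sequenced more deeply. At least 2 inhibitory receptors were detected together in 19.7% of Cd226-/- and 21.9% of WT lymphocytes, against 2.29% of naive lymphocytes. No receptor at all was found in 33 Cd226-/- and 24 WT cells, against 67 naive cells. The treated libraries were close to each other in both shares.

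Lymphocyte-like cells were then gated cell by cell, with no member gene in the gates: CD3 with Foxp3 (regulatory T cells), CD3 with at least 2 UMIs of Il17a and Il17f, CD3 with Cd8a or Cd8b1, CD3 with Cd4, CD3 with Trdc (gamma-delta T cells), other CD3 cells, and among cells without CD3 an NK-type gate (Ncr1, Klrb1c or Eomes) and an ILC2-type gate (Gata3, Il1rl1, Il5 or Il13). The makeup differed between libraries. The IL-17 gate held 36.9% of Cd226-/- and 33.3% of WT lymphocytes, against 8.78% of naive lymphocytes, and the gamma-delta gate held 22.6% and 15%, against 46.2%. The CD8 gate held 74 Cd226-/- and 66 WT cells, against 15 naive cells. A gate needs a detected transcript, so cells missed by one gate fell into a later one, and of the cells in the IL-17 gate 145 of 219 in the Cd226-/- library, 92 of 131 in the WT library and 20 of 23 in the naive CD45+ library also held Trdc.

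The Foxp3 gate was small, with 9 Cd226-/-, 8 WT and 12 naive cells, and carried the receptors in all 3 libraries. Of these cells 3, 6 and 5 in that order held only 1 Foxp3 UMI. In the CD4 gate 20 of 32 Cd226-/-, 14 of 28 WT and 4 of 8 naive cells held only 1 Cd4 UMI. Ctla4 had 1607 CPM in Cd226-/- and 1368 in WT Foxp3-gated cells, against 706 in naive ones. Tnfrsf4 had 886 and 406, against 714, and Tnfrsf18 556 and 491, against 525, so neither was lowest in naive skin. At least 3 receptors were detected in 9 of 9 Cd226-/- and 7 of 8 WT cells, against 11 of 12 naive cells. Summed over the libraries, those of the 10 genes with their highest level in this gate were Ctla4 (1059 CPM, 95% interval 925 to 1207), Tnfrsf9 (875, 753 to 1010), Tnfrsf4 (686, 579 to 807), Tnfrsf18 (525, 432 to 632) and Lag3 (80.4, 46.8 to 129). The share of all genes that are highest in this small gate was not computed, so their number is not read as a trait of the 10. For Tnfrsf18 the ILC2-type gate followed at 506 (438 to 580), within counting error. For Ctla4 and Tnfrsf4 the CD4 gate followed, at 595 (512 to 687) and 357 (294 to 430), outside the interval of the Foxp3 gate. Library by library, only Ctla4 was highest in the Foxp3 gate in all 3. In WT cells Tnfrsf9 was higher in the ILC2-type gate (712 CPM, against 449 in the Foxp3 gate), Tnfrsf4 in the CD4 gate (420, against 406) and Lag3 in the NK-type gate (54.5 from 4 UMIs, against 21.4 from 1). Tnfrsf18 was higher in the ILC2-type gate in both treated libraries.

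In the CD8 gate, the cytotoxic T cells in which PD-1 is best studied, Pdcd1 had 563 CPM in the Cd226-/- library and 366 in the WT library, against 34.5 in the naive library. The naive value rested on 3 UMIs, and the folds were 16.3 (5.48 to 79.9) for Cd226-/- over naive and 10.6 (3.54 to 52.1) for WT over naive. Ctla4 had 244 CPM in Cd226-/- and 320 in WT CD8-gated cells and no UMI in the 15 naive ones, where the limit of 3 counts is 34.5 CPM, which makes it at least 7.07-fold and at least 9.26-fold higher against that limit over the gate. Havcr2 had 129 in both treated libraries and no UMI in the naive one (at least 3.73-fold and at least 3.74-fold). At least 3 receptors were detected in 54 of 74 Cd226-/- and 47 of 66 WT cells, and in 0 of 15 naive cells, where the limit of 3 counts is a share of 20%. Summed over libraries, Pdcd1 was highest in this gate, at 408 CPM (362 to 457), although in naive cells it was highest in the IL-17 gate (331 CPM) and in WT cells in the 12 remaining cells without CD3 (408 CPM from 14 UMIs). A gene that is high in a treated library alone can reach the 30-UMI minimum, so no count of genes is given for naive comparisons within gates.

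In the gamma-delta gate Havcr2 and Tnfrsf9 had the highest folds over naive. Havcr2 had 258 CPM in Cd226-/- and 436 in WT gamma-delta cells, against 8.91 in naive ones, which is 28.9-fold (12.9 to 80.3) and 48.9-fold (21.4 to 137). Tnfrsf9 had 481 in Cd226-/- and 477 in WT cells, against 10.4 in naive ones, or 46.2-fold (22.1 to 116) and 45.9-fold (21.3 to 118). Both genes were near 0 in the 121 naive gamma-delta cells and high in both treated libraries. Tnfrsf18 had 172 CPM in Cd226-/- and 177 in WT cells, against 56.5 in naive ones (3.05-fold, 2.06 to 4.58, and 3.13-fold, 1.87 to 5.18). Ctla4 was nearly absent, with 9 UMIs in 134 Cd226-/- cells and none in 59 WT or 121 naive cells, and Icos had 229 CPM in Cd226-/- and 153 in WT cells, against 132 in naive ones. Havcr2 and Tnfrsf9 were detected together in 42 Cd226-/- and 20 WT cells, against 1 naive cell. Summed over libraries Havcr2 was highest in this gate, at 156 CPM (136 to 179), with the CD8 gate next at 113 (89.8 to 141); it was highest here in both treated libraries and not in the naive one.

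In the IL-17 gate, Icos had 1257 CPM in the Cd226-/- library and 1006 in the WT library, against 493 in the naive library, and Tnfrsf9 had 706 and 445, against 51.8. Icos and Tnfrsf9 were detected together in 112 of 219 Cd226-/- and 64 of 131 WT cells, against 2 of 23 naive cells. Pdcd1 went the other way, with 202 CPM in Cd226-/- and 186 in WT cells, against 331 in naive ones, or 0.611-fold (0.445 to 0.851) and 0.564-fold (0.401 to 0.803); with the richest cells removed the folds were 0.812 and 0.713. Cd274 was at 0.557-fold (0.285 to 1.17) in Cd226-/- over naive from 38 and 12 UMIs, which turned to 2.91-fold with the richest cells removed.

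The ILC2-type gate takes cells with no CD3 UMI, and T cells whose CD3 transcripts went undetected were not separated from innate lymphocytes in it. The median depth there was 3149 UMIs in the Cd226-/- library and 3071.5 in the WT library, against 6231 in the naive library. Tnfrsf18 had 782 CPM in the Cd226-/- library and 619 in the WT library, against 270 in the naive library (2.90-fold, 2.05 to 4.15, and 2.30-fold, 1.53 to 3.44). Tnfrsf9 had 529 and 712, against 10.6 from 2 UMIs, or 50.1-fold (13.3 to 422) and 67.4-fold (17.9 to 569). Both treated libraries were above the naive one for each gene. The NK-type gate, with 19 Cd226-/-, 8 WT and 18 naive cells, had little Icos (65.8, 13.6 and 7.99 CPM in that order) and no Tnfrsf4 UMI in any of the 45 cells (where the limit of 3 counts is 28.2, 40.9 and 24 CPM in the same order). Its Pdcd1lg2 level of 450 CPM in WT cells, against 84.6 in Cd226-/- cells, came from 33 UMIs, 26 of them in 1 cell.

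**Figure D3:**
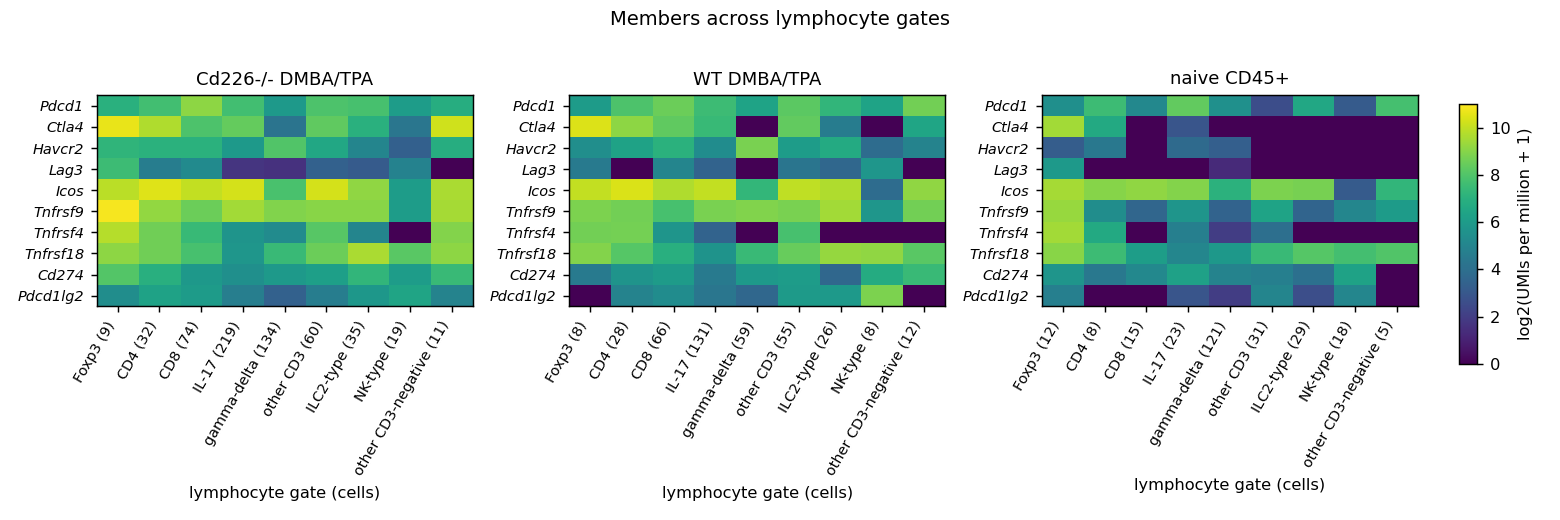
Level of each gene (rows) in each lymphocyte gate (columns, with cell numbers) as log2 of CPM plus 1, for Cd226-/- DMBA/TPA (left), WT DMBA/TPA (middle) and naive CD45+ (right). The Foxp3 column is bright for Ctla4, Tnfrsf4, Tnfrsf18, Icos and Tnfrsf9 in all 3 libraries, and the naive gamma-delta column is dark for Havcr2 (8.91 CPM) and Tnfrsf9 (10.4).

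The comparison of genotypes under the same treatment, Cd226-/- over WT, gave ratios nearer to 1 over all lymphocyte-like cells. None of the 10 genes was past 1.5-fold (0 of 10), where 14.4% of 8043 genes were past it in either direction. The median log2 ratio was 0.13 over the 10 genes and 0.05 over all genes. Tnfrsf9 had the widest difference upward, at 578 CPM in Cd226-/- and 398 in WT lymphocytes, or 1.45-fold (1.32 to 1.60). Cd274 was at 1.40-fold (1.07 to 1.85), Tnfrsf4 at 1.32-fold (1.08 to 1.61) and Ctla4 at 1.16-fold (1.02 to 1.31), each with an interval above 1 for counting error alone. Pdcd1 (0.937, 0.819 to 1.07), Icos (1.06, 0.993 to 1.14), Havcr2 (1.13, 0.931 to 1.37), Tnfrsf18 (1.04, 0.906 to 1.19) and Lag3 (0.879, 0.510 to 1.52) had intervals that held 1. Pdcd1lg2 was at 0.698-fold (0.508 to 0.959), and at 0.932-fold with the richest cells removed. With each library clustered on its own, Tnfrsf9 was past the threshold at 1.63-fold, and with the subset makeup held at that of WT, Tnfrsf4 was, at 1.76-fold. The unnamed cluster with lymphocyte and monocyte markers (176 Cd226-/- and 92 WT cells) differed from this for Pdcd1. There Pdcd1 was at 0.503-fold (0.378 to 0.670) and Tnfrsf9 at 1.89-fold (1.56 to 2.31). The rest of the 10 genes were not past the threshold in it, where 14.9% of 7651 genes were past it in either direction. In an unnamed cluster of cycling cells with markers of several lineages (57 Cd226-/- and 63 WT cells), 4 genes were past it, each lower. They were Pdcd1 (0.437-fold, 0.269 to 0.694), Tnfrsf9 (0.504-fold, 0.378 to 0.668), Tnfrsf4 (0.623-fold, 0.399 to 0.962) and Pdcd1lg2 (0.534-fold, 0.234 to 1.15). There 18.1% of 5870 genes were past it in either direction, and 7.90% were lower. Tnfrsf4 was at 0.853-fold without the richest cells.

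Within gates, the IL-17 and CD8 gates held most of the genes past the threshold. In the IL-17 gate, 5 of the 9 genes counted were higher in Cd226-/- and 0 lower, where 14.3% of 4693 genes were higher; the median log2 ratio was 0.62 over the 9 genes and 0.11 over all. Ctla4 had 340 CPM in Cd226-/- and 169 in WT IL-17-gated cells, or 2.01-fold (1.59 to 2.55), and was detected, after thinning, in 19.6% and 9.92% of them (0.0366% and 0.0248% of fibroblast-like cells). Tnfrsf9 had 706 and 445, or 1.59-fold (1.37 to 1.84). Tnfrsf4 had 51.3 and 10.3, or 5.00-fold (2.13 to 14.3), from 45 UMIs in 13 Cd226-/- cells and 6 UMIs in 6 WT cells. Cd274 was at 1.95-fold (1.02 to 3.99) and Havcr2 at 1.54-fold (0.925 to 2.63), whose interval holds 1. Over cells with at least 3 CD3 UMIs 3 genes were past the threshold, with Ctla4 at 1.64-fold, Tnfrsf9 at 1.49-fold, Havcr2 at 1.17-fold and Tnfrsf4 at 1.22-fold.

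In the CD8 gate, 5 of 9 genes counted were higher in Cd226-/- and 0 lower, where 13.4% of 2794 genes were higher, with a median log2 ratio of 0.62 against 0.04 over all. Pdcd1 had 563 CPM in Cd226-/- and 366 in WT CD8-gated cells, or 1.54-fold (1.21 to 1.96). Tnfrsf4 had 170 and 52.3, or 3.24-fold (1.84 to 6.0), detected in 19 of 74 and 5 of 66 cells, and Tnfrsf18 had 224 and 120, or 1.87-fold (1.24 to 2.85). Tnfrsf9 was at 1.69-fold (1.24 to 2.30) and Pdcd1lg2 at 1.61-fold (0.755 to 3.55). Ctla4 lay on the other side, with 244 and 320 CPM, or 0.764-fold (0.557 to 1.04), and Havcr2 was level at 0.998-fold (0.626 to 1.59). At least 2 inhibitory receptors were found together in 28 of 74 Cd226-/- cells (37.8%), against 35 of 66 WT cells (53.0%). Over cells with at least 3 CD3 UMIs, 3 genes were past the threshold, Pdcd1 was at 1.14-fold, Tnfrsf4 at 1.30-fold and Tnfrsf9 at 0.957-fold.

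In the gamma-delta gate 1 of 6 genes counted was lower in Cd226-/-, where 11.6% of 3361 genes were lower. That was Havcr2, with 258 CPM in Cd226-/- and 436 in WT gamma-delta cells, or 0.592-fold (0.442 to 0.798), from 132 and 74 UMIs. Tnfrsf9 was level at 1.01-fold (0.781 to 1.31) and Tnfrsf18 at 0.974-fold (0.637 to 1.53). None of 6 genes in the CD4 gate, 8 in the remaining CD3 cells or 4 in the ILC2-type gate was past the threshold, where 24.6%, 22.7% and 28.5% of genes were past it in either direction. Whether the gates differ from each other in the genotype ratio was not tested.

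**Figure D4:**
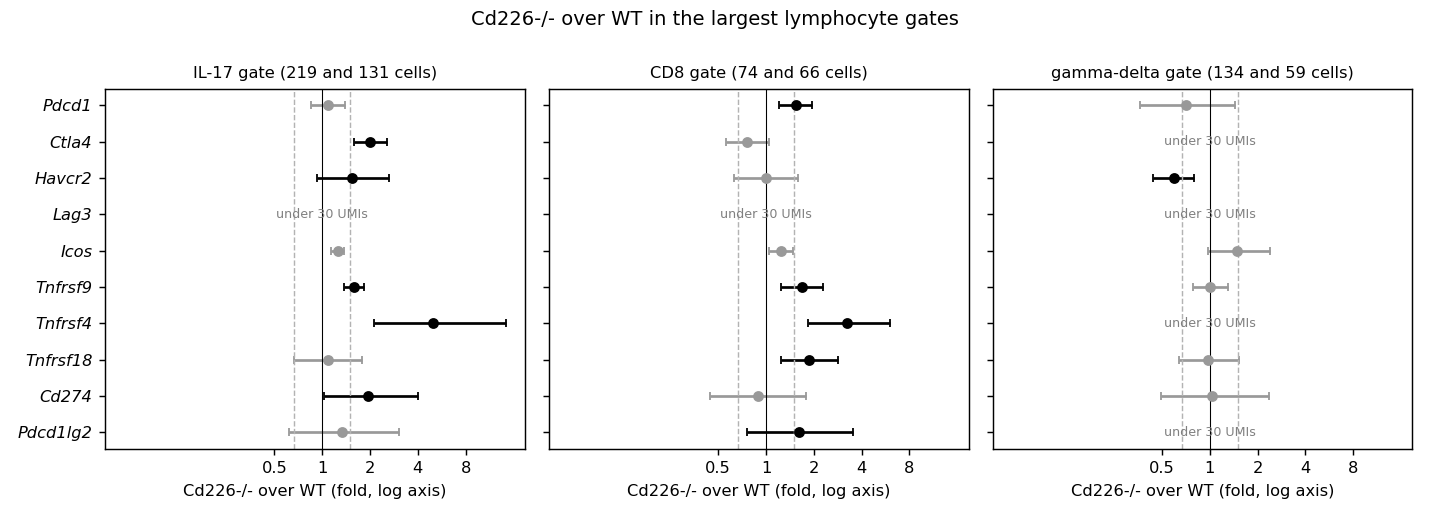
Fold of Cd226-/- over WT for each gene in the IL-17, CD8 and gamma-delta gates, on a log axis, with exact 95% intervals for counting error; black points are past 1.5-fold (dashed lines) with at least 30 UMIs and grey points are not. In the IL-17 and CD8 gates the 5 black points each lie above 1, and in the gamma-delta gate the 1 black point, Havcr2 at 0.592, lies below it.

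Of the ligand-bearing cells, the mature dendritic-like cluster (338 Cd226-/-, 257 WT and 33 naive CD45+ cells) had the highest level of Pdcd1lg2. These are migratory antigen-presenting cells marked by Ccr7, Fscn1 and Ccl22, and Cd207, the Langerhans cell lectin, was also among the leading genes of the cluster. Cd274 had 360 CPM in the Cd226-/- library and 306 in the WT library, against 200 in the naive CD45+ library, and the genotype ratio was 1.18 (1.08 to 1.28). Pdcd1lg2 had 114 in the Cd226-/- library and 69.3 in the WT library, against 59.9 in the naive CD45+ library, and the genotype ratio was 1.65 (1.39 to 1.96). Both ligands were thus highest in Cd226-/- cells, and Pdcd1lg2 was past the threshold, where 3.16% of 8984 genes were higher and 10.5% lower. After thinning, Pdcd1lg2 was detected in 11.5% of Cd226-/- and 7.0% of WT cells, against 6.06% of naive cells, and Cd274 in 30.2% and 24.5%, against 15.2%. In fibroblast-like cells of the treated libraries the thinned share was 0% for Pdcd1lg2, and 0.329% (Cd226-/-) and 0.645% (WT) for Cd274. Both ligand genes were found in the same cell in 164 of 338 Cd226-/- and 85 of 257 WT cells, against 10 of 33 naive cells. Among cells with Cd274, Pdcd1lg2 was detected in 60.1% in the Cd226-/- library and 48.0% in the WT library, and among cells without Cd274 in 13.8% and 26.2%. This class held 65.2% of all Pdcd1lg2 UMIs of the Cd226-/- library and 51.7% of those of the WT library, against 26.2% in naive CD45+ skin, and 46.1% of all Cd274 UMIs of the Cd226-/- library and 41.0% of those of the WT library, against 5.04% in naive CD45+ skin. The markers of mature dendritic cells summed to 11664 CPM in the Cd226-/- cells and 9789 in the WT cells of this class, against 6793 in the naive cells, and the macrophage markers to 4565 and 5738, against 8748, so the naive cells held more of the second than of the first. The 7 fibroblast markers summed to 303 CPM in the Cd226-/- cells, 2881 in the WT cells and 13.3 in the naive cells. The part of these in the results was not tested.

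Neutrophil-like cells held 11.3% of all Cd274 UMIs in the Cd226-/- library and 14.5% in the WT library, against 41.0% in naive CD45+ skin, and monocyte-like cells held 18.0% and 10.2%, against 4.03%. Cd274 had 324 CPM in the Cd226-/- library and 409 in the WT library, against 439 in the naive CD45+ library, from 265, 159 and 524 cells. The ratios were 0.792 (0.675 to 0.929) for Cd226-/- over WT, 0.737 (0.644 to 0.841) for Cd226-/- over naive and 0.930 (0.811 to 1.07) for WT over naive. None passed 1.5-fold, where 33.7%, 45.7% and 53.6% of genes did in those comparisons. Pdcd1lg2 was sparse, with 26, 12 and 9 UMIs, and was at 26 CPM in the Cd226-/- library and 16.2 in the WT library, against 5.41 in the naive library. The ratio was 4.80 (2.18 to 11.6) for Cd226-/- over naive, where 8.80% of genes were higher, and 3.00 (1.16 to 8.07) from too few UMIs to be counted for WT over naive, where 23.9% were. For Cd226-/- over WT it was 1.60 (0.779 to 3.48), where 6.92% of genes were higher, and 1.49 with the richest cells removed. The median log2 ratio of all genes in neutrophil-like cells was -0.14 for Cd226-/- over WT, -0.35 for Cd226-/- over naive and -0.13 for WT over naive.

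In monocyte-like cells Cd274 had 63.0 CPM in the Cd226-/- library and 72.9 in the WT library, against 41.4 in the naive CD45+ library, which is 1.52-fold (1.19 to 1.98) and 1.76-fold (1.34 to 2.34) over naive, where 12.8% of 8928 and 10.7% of 7692 genes were higher; at clustering resolution 2 the first ratio was 0.891. In dendritic-like cells it had 21.5 in the Cd226-/- library and 38.8 in the WT library, against 13.8 in the naive library, and the genotype ratio of 0.555 (0.331 to 0.944) passed the threshold, where 7.90% of 6230 genes were lower. Over naive cells the ratios were 1.56 (0.996 to 2.41) for Cd226-/-, where 7.06% of genes were higher, and 2.80 (1.69 to 4.56) for WT, where 9.17% were; the first was 1.41 with the richest cells removed. In macrophage-like cells it differed little, at 47.4 and 52.2, against 37.3 CPM. Pdcd1lg2 in macrophage-like cells had 8.79 in the Cd226-/- library and 14.5 in the WT library, against 1.30 in the naive library, which is 6.78-fold (3.35 to 13.6) and 11.2-fold (5.79 to 21.9), where 10.6% of 10370 and 11.5% of 10365 genes were higher. Those folds rest on 18, 22 and 19 UMIs. The genotype ratio was 0.604 (0.306 to 1.18), where 6.41% of genes were lower, and its interval holds 1. In monocyte-like cells Pdcd1lg2 had 3.05 CPM in the Cd226-/- library and 3.80 in the WT library, against 4.6 in the naive library; the ratio of 0.663 (0.290 to 1.70) for Cd226-/- over naive, where 8.08% of genes were lower, turned to 1.48 with the richest cells removed.

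Cd274 was also detected in stromal cells, at a lower level in Cd226-/- than in WT cells of both main classes. In endothelial-like cells it had 14.7 CPM in the Cd226-/- library and 48.0 in the WT library, against 19.9 in the naive CD45- library, and the genotype ratio was 0.306 (0.0952 to 0.761) from 5 UMIs in 57 cells and 51 UMIs in 175 cells, where 13.9% of 5751 genes were lower. For WT over naive it was 2.41 (1.18 to 5.58), where 12.5% of 6127 genes were higher. In fibroblast-like cells it had 3.24 CPM in the Cd226-/- library and 5.88 in the WT library, against 2.33 in the naive CD45- library. The ratio of 0.551 (0.441 to 0.686) for Cd226-/- over WT passed the threshold, where 7.68% of 13051 genes were lower, as did that of 2.52 (2.06 to 3.09) for WT over naive, where 21.5% of 13407 genes were higher and the median log2 ratio of all genes was 0.19. After thinning, 0.329% of Cd226-/- and 0.645% of WT fibroblast-like cells held Cd274, against 0.240% in the naive CD45- library. Tnfrsf9, which had more UMIs than Cd274 in the whole WT library (2835 and 2078), had 0.354 CPM in WT fibroblast-like cells and was detected after thinning in 0.0496% of them. In the Cd226-/- library, with 5203 and 2875 UMIs, Tnfrsf9 had 0.973 CPM in fibroblast-like cells, against 3.24 for Cd274. The part of free RNA in the Cd274 counts of fibroblast-like cells was not tested. Pdcd1lg2 had no UMI in endothelial-like cells of any library and 4, 2 and 0 UMIs in fibroblast-like cells of the Cd226-/-, WT and naive CD45- libraries. Over the dendritic-like, other myeloid and stromal classes above with at least 50 cells in both libraries, 6 of 11 ratios of the 2 ligand genes were past 1.5-fold for Cd226-/- over WT: Pdcd1lg2 was higher in mature dendritic-like and neutrophil-like cells and lower in macrophage-like cells, and Cd274 was lower in dendritic-like, fibroblast-like and endothelial-like cells. Between 12.2% and 33.7% of all genes were past it in those classes. The count leaves out unnamed clusters and lymphocyte-like cells. In the latter Cd274 was at 1.40-fold and Pdcd1lg2 at 0.698-fold, neither past the threshold.

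**Figure D5:**
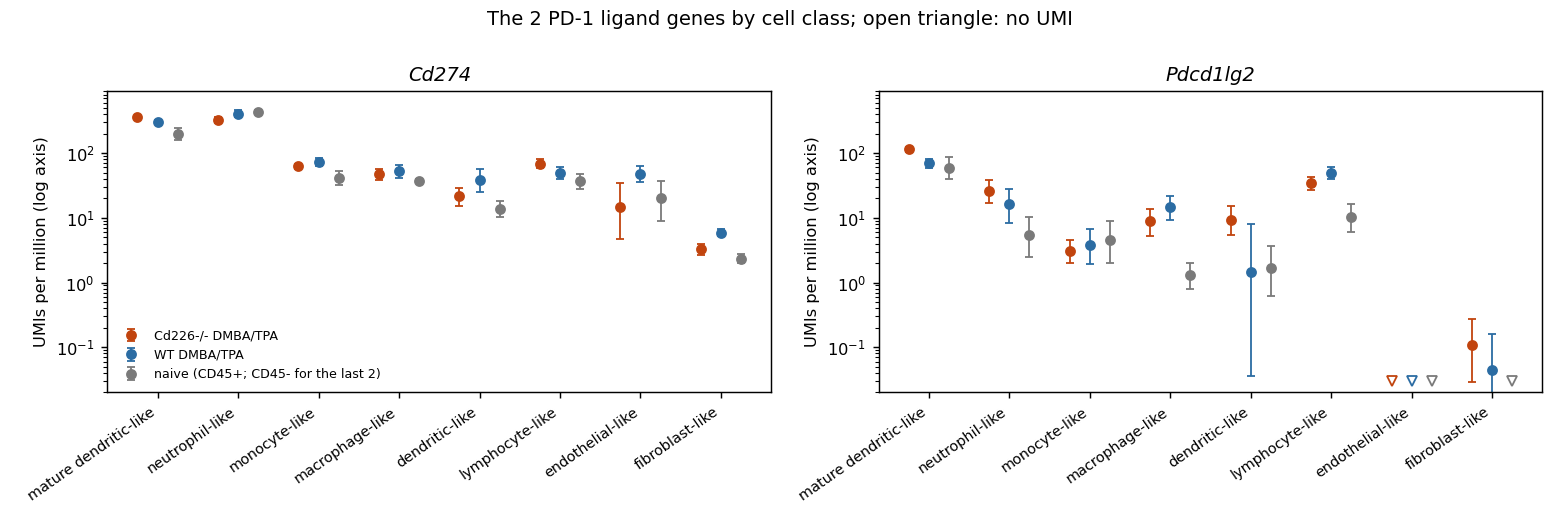
Levels of Cd274 (left) and Pdcd1lg2 (right) by cell class, in CPM on a log axis, for Cd226-/- DMBA/TPA, WT DMBA/TPA and the naive library that holds the class; bars are exact Poisson 95% intervals and open triangles mark no UMI. Cd274 is at 200 or more in mature dendritic-like and neutrophil-like cells of all 3 libraries, and Pdcd1lg2 is highest in mature dendritic-like cells at 114, 69.3 and 59.9.

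The receptors were not confined to lymphocytes. Mature dendritic-like cells held 59.9% of all Tnfrsf9 UMIs of the Cd226-/- library and 62.8% of those of the WT library, at 848 and 640 CPM, against 193 in naive cells, and the genotype ratio was 1.33 (1.25 to 1.41). They also held 45.5% and 58.2% of all Havcr2 UMIs, at 170 CPM in the Cd226-/- library and 243 in the WT library, against 33.3 in naive cells, with a genotype ratio of 0.701 (0.628 to 0.783). In naive CD45+ skin the largest share of Havcr2, 57.3%, lay in macrophage-like cells. Of 9 genes counted in mature dendritic-like cells for Cd226-/- over WT, 1 was higher and 3 were lower, where 13.7% of 8984 genes were past the threshold in either direction, and the median log2 ratio was -0.28 against -0.05 over all genes. The 3 lower ones were Ctla4 (0.308-fold, 0.187 to 0.492), Tnfrsf4 (0.379-fold, 0.222 to 0.630) and Tnfrsf18 (0.634-fold, 0.445 to 0.901), all at low levels, with 26.6 CPM the highest. Of the 64 Ctla4 UMIs of the WT cells 24 lay in 1 cell, and Tnfrsf18 was at 0.811-fold without the richest cells. The 13 lymphocyte markers summed to 772 CPM in the Cd226-/- cells and 1037 in the WT cells of this class, and their part in these ratios was not tested. In monocyte-like cells Havcr2 had 20.6 CPM in the Cd226-/- library and 31.5 in the WT library (0.655-fold, 0.505 to 0.855), where 6.93% of 9187 genes were lower. In neutrophil-like cells it had 36.0 and 39.3, against 13.2 in naive cells (2.72-fold, 1.56 to 4.85, and 2.97-fold, 1.65 to 5.42), where 8.80% of 3954 and 23.9% of 4102 genes were higher.

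The partners of these molecules and other genes of the same pathways were taken from a list of 35. In lymphocyte-like cells, 21 could be counted for Cd226-/- over WT, of which 1 was higher and 7 lower, with a median log2 ratio of -0.17 against 0.05 over all genes (8.75% of genes were higher and 5.64% lower). The lower ones included Cd28, the main costimulatory receptor of T cells, with 212 CPM in Cd226-/- and 332 in WT lymphocytes (0.638-fold, 0.565 to 0.721), and Cd160, an NK and T cell receptor for HVEM, with 47.6 and 72.9 (0.653-fold, 0.502 to 0.850). Cd226 was at 0.380-fold (0.254 to 0.561). Entpd1 (0.494-fold, 0.217 to 1.08), Cd200r1 (0.624-fold, 0.300 to 1.28) and Lair1 (0.640-fold, 0.328 to 1.24) rested on few UMIs. So did Cd200, the higher one, at 1.53-fold (0.803 to 3.05, from 31 and 15 UMIs). The intervals of Entpd1, Cd200r1, Lair1 and Cd200 hold 1, and Entpd1 was at 0.671-fold without the richest cells. Cd70 (0.297-fold, 0.147 to 0.565) also rested on few UMIs, with 30 of 35 WT UMIs in 1 cell. Against naive lymphocytes, 7 of 17 were higher and 4 lower in Cd226-/- cells, where 13.8% of all genes were higher and 15% lower, and the median log2 ratio was 0.06 against -0.06 over all. In WT cells 8 of 18 were higher and 3 lower, where 12.3% of all genes were higher and 18.3% lower, and the median was 0.22 against -0.11. Higher in both were Cd28, Tnfsf9 (the ligand of 4-1BB, 57.9 CPM in Cd226-/- and 53.8 in WT lymphocytes, against 15.9 in naive ones), Nt5e (CD73, 3.57-fold and 4.02-fold), Tnfrsf8 (CD30, 27.4-fold, 4.63 to 1108, and 28.4-fold, 4.72 to 1158, over 1 naive UMI), its ligand gene Tnfsf8 (2.96-fold and 2.41-fold) and Cd226 (3.60-fold and 9.46-fold). Lower in both were Lgals9, which encodes galectin-9, a ligand of TIM-3 (0.511-fold and 0.566-fold), and Klrg1 (0.268-fold and 0.376-fold). Cd200 was higher (5.44-fold) and Cd160 (0.545-fold) and Cd27 (0.579-fold) were lower in Cd226-/- over naive. In WT over naive, Cd200r1 was higher (1.63-fold, 0.739 to 3.80, an interval that holds 1) and Tnfsf14 was lower (0.614-fold). Cd70 was higher there too (at least 11-fold, and 1.60-fold with the richest cell removed).

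In mature dendritic-like cells, 19 of the 35 were counted for Cd226-/- over WT, of which 2 were higher and 6 lower (3.16% and 10.5% of all genes), with a median log2 ratio of -0.17 against -0.05. Tnfsf8 (2.62-fold, 1.39 to 5.30) and Ceacam1 (1.55-fold, 0.877 to 2.85) were higher. Cd28, at 12.8 CPM in the Cd226-/- library and 35.6 in the WT library, was lowest in ratio (0.359-fold, 0.248 to 0.514), followed by Lair1 (0.510-fold), Cd276 (0.541-fold), Cd70 (0.573-fold), Lgals9 (0.601-fold) and Cd200r1 (0.615-fold).

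In fibroblast-like cells, 14 of the 35 were counted for Cd226-/- over WT, of which 4 were higher and 3 lower (7.0% and 7.68% of all genes). Icosl, which encodes the ligand of ICOS, had 7.08 CPM in the Cd226-/- library and 15 in the WT library, against 4.89 in the naive CD45- library, and the genotype ratio was 0.472 (0.408 to 0.545). Entpd1, which encodes the ectoenzyme CD39, had 17.9 and 44.4, against 20.7 (0.404-fold, 0.370 to 0.441), and Cd40 was at 0.583-fold (0.367 to 0.907). WT was thus the highest of the libraries for Icosl and Entpd1. Cd276, which encodes B7-H3, had 17.2 and 11.3 CPM, against 26.1 (1.52-fold, 1.35 to 1.71). Cd80 (3.72-fold, 2.67 to 5.26), Cd86 (2.23-fold, 1.31 to 3.89) and Tnfsf8 (6.72-fold, 3.77 to 12.9), which immune cells express, were at 3.95 CPM or less in both genotypes, and the part of free RNA in them was not tested.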

How the data were processed

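The authors deposited raw UMI counts per gene and cell barcode for each of the 4 libraries (10x 3′ chemistry). Per the submitters' processing notes these were made with Cell Ranger 3.1.0 and genome mm10. The 4 matrices held 5913 to 11875 barcodes and from 42043869 to 81406730 gene UMIs.

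Barcodes under 500 genes or 1000 UMIs, or above 10% mitochondrial UMIs, were dropped, and Scrublet doublets (scanpy 1.11.5, expected rate 0.06) were removed: 161 in the Cd226-/-, 190 in the WT, 19 in the naive CD45+ and 603 in the naive CD45- library. Clusters came from 2000 variable genes, 30 principal components, 15 neighbours and Leiden resolution 1, giving 31 clusters. A cluster's score for a marker list was the mean log2 CPM of its genes above their lower quartile over clusters; a name needed a score of 2.5 and at least 3 detected markers, and was withheld where another lineage scored at least 3 and came within 2. These thresholds were set after the clusters were seen.

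Counts were summed per class or gate and library and given as CPM with exact Poisson intervals; shares have exact Clopper-Pearson intervals; folds are ratios of CPM with exact conditional binomial 95% intervals (scipy 1.17.1). Class comparisons needed 50 cells in both libraries. A gene counted as past the threshold at 1.5-fold either way with at least 30 UMIs over both libraries; a count of 0 was replaced by 3, and limits for counts of 0 are those of 3 counts unless an exact interval is named. Thinned shares are medians of 100 draws. All 10 genes were described; partner genes were named when past the threshold; and the 2 genes most like each of the 10 were taken by Pearson's r. The genes, lists and comparisons were chosen with earlier results of these data known. The ratio and interval steps were checked on simulated counts. Promoters are RefSeq sequences of build GRCm38.p6; gene positions come from the GRCm38 annotation, whose gene identifiers matched the files. The alternatives tried were other gates and cell choices, clustering resolution, separate clustering, median-ratio scaling, no UMI minimum, a fixed subset makeup and removal of the richest cell. The fixed subset makeup, the mixed cluster counted in, and the richest-cell and scaling alternatives within gates were chosen after seeing the data.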

Additional observations from a re-analysis of the deposited data

Results flagged for a closer look

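The genotype ratio of Pdcd1lg2, which encodes PD-L2, went in opposite directions between classes. For Cd226-/- over WT it was 1.65 (1.39 to 1.96) in mature dendritic-like cells, from 420 and 193 UMIs, and 1.60 (0.779 to 3.48) in neutrophil-like cells, from 26 and 12 UMIs. In macrophage-like cells it was 0.604 (0.306 to 1.18), from 18 and 22 UMIs. The difference between classes was not tested, and only the interval in mature dendritic-like cells leaves out 1. Cd274, the neighbouring gene, was at 1.18 (1.08 to 1.28), 0.792 (0.675 to 0.929) and 0.907 (0.667 to 1.24) in the same 3 classes in that order. The fibroblast markers in mature dendritic-like cells differed between the genotypes (303 CPM in Cd226-/- and 2881 CPM in WT cells), and their part in the ratio was not tested.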

How the results depend on the processing

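Each comparison rests on 1 library per group, so counting error was measured and the spread between mice was not. No paired analysis was possible because no group has replicates. For Cd226-/- over WT, 0 of the 10 genes were past 1.5-fold in lymphocyte-like cells, and 1 was with each library clustered on its own (Tnfrsf9) and 1 with the subset makeup of WT (Tnfrsf4). Of the 35 partner genes 8 were past it, and 14 without the UMI minimum. Over cells with at least 3 CD3 UMIs the counts were 3 in the IL-17 gate and 3 in the CD8 gate, against 5 in each, Tnfrsf9 in the CD8 gate turned to 0.957-fold, and Tnfrsf4 turned to 0.926-fold in Cd226-/- and 0.874-fold in WT over naive. In the gamma-delta gate the count was 1, and 2 with gates of 2 UMIs, 2 with the richest cells removed, 2 with median-ratio scaling and 3 over cells with at least 3 CD3 UMIs. For Cd226-/- over naive, 5 ligand ratios in named classes other than lymphocyte-like cells were past the threshold, 4 higher and 1 lower, and 2 with the richest cells removed and 3 with each library clustered on its own. In monocyte-like cells the ratio of Pdcd1lg2, 0.663, turned to 1.48 with the richest cells removed and 1.34 at resolution 2, where that of Cd274, 1.52, turned to 0.891. The cause was not tested in any of these. Of the ratios of the 10 genes in lymphocyte-like cells under alternatives, 160 stayed within their interval, 78 moved outside it and 2 were recorded as turned in direction. Turning was recorded only for ratios that were past 1.5-fold to begin with, which held for none of the 10 in Cd226-/- over WT. Other ratios that crossed 1 are among the 160 and 78. Depth limits Lag3 most, with 32, 27 and 8 UMIs in Cd226-/-, WT and naive lymphocytes.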

Other observations

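Over 60 combinations of library and cell class or gate with at least 30 cells, the genes whose levels ran most like each of the 10 were listed as a description; the points share libraries, and several overlap in cells. Pdcd1 was most like Klrc2 (Pearson's r = 0.96) and Camk4 (0.94), Icos most like Cxcr6 (0.97) and Sh2d2a (0.96), and Ctla4 most like Cd6 (0.91) and Icos (0.87). Tnfrsf9 was most like Serpinb6b (0.91) and Il2ra (0.89), Tnfrsf4 most like Ctla4 (0.86) and Cd6 (0.86), and Lag3 most like Gpr174 (0.67) and 4932438H23Rik (0.66). Havcr2 was most like Cytip (0.89) and Traf1 (0.88), and Pdcd1lg2 most like Traf1 (0.88) and Bcl2a1d (0.87), so that Traf1 stood beside both. Tnfrsf18 was most like Gstp3 (0.90) and Gata3 (0.88), the second of which is also a gating gene of the ILC2-type gate. Cd274 was most like Mxd1 (0.87) and Malt1 (0.87). Among the 10 genes themselves, Pdcd1 and Icos were most alike (0.93) and Lag3 and Cd274 least (0.21).

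Some of the 10 genes were found outside immune cells. In keratinocyte-like cells, the epidermal cells, Tnfrsf18 had 85.8 CPM in the Cd226-/- library (37 UMIs in 22 cells) and 99.3 in the WT library (330 UMIs in 206 cells), against 128 in the naive CD45- library (49 UMIs in 47 cells). The 95% intervals, 60.4 to 118, 88.9 to 111 and 94.5 to 169 in that order, overlap. In endothelial-like cells Tnfrsf9 had 46.9 CPM in the Cd226-/- library and 16 in the WT library, against 2.21 in the naive CD45- library. The genotype ratio was 2.93 (1.39 to 6.18), from 16 UMIs in 57 cells and 17 UMIs in 175 cells, where 10.6% of 5751 genes were higher. The part of free RNA or undetected doublets in it was not tested.

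Among the partner genes in other classes, Nt5e, which encodes the ectoenzyme CD73, had 6.57 CPM in fibroblast-like cells of the Cd226-/- library and 6.48 in those of the WT library, against 64.8 in the naive CD45- library. Vsir, which encodes VISTA, had 34.1 and 36.9, against 14.5 in naive fibroblast-like cells. Cd200 in endothelial-like cells had 191 and 346, against 682 in naive ones. The unnamed cluster of cycling cells with markers of several lineages held 57 Cd226-/-, 63 WT and 64 naive CD45+ cells. In it Tnfrsf9 had 98.4 CPM in the Cd226-/- library and 195 in the WT library, against 22.7 in the naive CD45+ library. The richest cell of the library held 24 of the 30 naive and 40 of the 159 WT UMIs of Tnfrsf9. Icos had 203 and 287, against 81.0. Ctla4 differed less, with 60.3 and 85.9, against 65.9, or 0.916-fold (0.626 to 1.32) and 1.30-fold (0.938 to 1.81). The richest naive cell held 45 of the 87 naive Ctla4 UMIs. The cluster held 30.5% of all Ctla4 UMIs in naive CD45+ skin.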
